A study of Mus musculus with 54 samples.

Results

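The genes examined here are those that make, bind, break down and respond to retinoic acid: Stra6, Adh1, Aldh1a1, Aldh1a2, Aldh1a3, Crabp1, Crabp2, Cyp26a1 and Rarb. They were chosen by name, as the probe sets that the platform annotation pairs with these symbols, and where a gene had several the one with the highest mean over all arrays was used. Of the 9 genes, 8 had a probe set, with 9 probe sets among them, out of 14104 genes and 30939 probe sets in the deposited table. Stra6, the cell-surface retinol importer, had none and was not analysed here.

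The study followed Mageb16, a gene of the MAGE family, through the differentiation of murine CGR8 embryonic stem cells (ESCs), a feeder-independent male line of the 129 strain. In KD ESCs an shRNA against Mageb16 had been stably introduced with a retroviral silencing plasmid and puromycin selection. SCR ESCs carried the same kind of plasmid with a scrambled shRNA, and WT ESCs carried none. Each line was profiled undifferentiated (day 0) and as embryoid bodies (EBs) made in hanging drops and collected at 2, 4, 12, 15 and 22 days, on 3 Affymetrix Mouse430 2.0 arrays per line and day, 54 in all. KD and SCR are each 1 polyclonal population, so that the effect of the construct and that of the selected line cannot be told apart. The labels number the 3 arrays of a group without saying that they came from separate cultures, so the p-values measure the spread between these arrays, which may be technical.

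Retinol is taken up from its carrier in the blood, oxidised to retinal by alcohol and retinol dehydrogenases, and oxidised further to retinoic acid by the retinaldehyde dehydrogenases of the Aldh1a family. In the cytosol it is held by Crabp1 and Crabp2, of which Crabp2 delivers it to the nucleus, where it binds RAR-RXR receptor pairs that sit on direct repeats in target genes. Cyp26 enzymes hydroxylate it for removal, and both Cyp26a1 and the receptor gene Rarb are themselves classical direct targets, in the embryo as in differentiating ESCs.

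The promoters of these last genes are shown because the data follow both as response genes, and because among the windows examined they alone held the repeat that RAR-RXR pairs are known to recognise. RefSeq windows from 250 bases before to 50 bases after a start site (build GRCm38.p6) were on hand for 7 of the 9 genes, 11 windows in all. Each was searched on both strands for 2 half-sites in the same direction and 5 bases apart, each half-site being AGGTCA or a variant of it with G as the first base, T as the third, or both. The capitals mark that repeat. The Cyp26a1 window is chr19:37697558-37697857, plus strand, and the Rarb window is chr14:16575427-16575726, minus strand, which lies within the annotated Rarb gene (chr14:16430839-17082331).
Cyp26a1: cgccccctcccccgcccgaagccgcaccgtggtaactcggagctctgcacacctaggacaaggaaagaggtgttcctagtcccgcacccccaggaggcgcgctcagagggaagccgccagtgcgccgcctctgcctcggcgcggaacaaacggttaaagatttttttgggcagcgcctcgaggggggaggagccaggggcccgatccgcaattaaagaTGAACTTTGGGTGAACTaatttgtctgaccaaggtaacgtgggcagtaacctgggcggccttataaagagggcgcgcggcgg
Rarb: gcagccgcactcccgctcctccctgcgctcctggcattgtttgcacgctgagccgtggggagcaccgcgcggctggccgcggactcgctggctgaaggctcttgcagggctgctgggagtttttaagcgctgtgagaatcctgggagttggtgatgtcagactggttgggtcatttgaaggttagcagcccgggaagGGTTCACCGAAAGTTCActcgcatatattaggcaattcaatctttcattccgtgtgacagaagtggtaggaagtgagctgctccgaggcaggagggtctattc
In Cyp26a1 the repeat ended 15 bases before the start site and read on the opposite strand as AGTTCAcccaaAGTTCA, with the spacer in lower case. In Rarb it ended 36 bases before the start site and read on the strand of the gene as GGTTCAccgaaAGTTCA. The Cyp26a1 repeat (chr19:37697776-37697792) also lies within its annotated gene (chr19:37697738-37701536), which begins before the start site used for the window. Of all 32851 promoter windows, 32 (0.0974%) held such a repeat. The same half-sites 2 bases apart were found in 0.268% and 1 base apart in 0.222% of all windows, and in 0 of the 11 windows of these genes. A match describes these letters and is neither a measured binding site nor a cause.

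All values below are log2 RMA signals, so that a difference of 1 is 2-fold. They carry no detection calls, and values under about the lower quartile of an array (4.23 to 4.51) are near the low end of the scale, where the size of a change is not exact. A gene was said to differ where limma's p-value, adjusted over all probe sets by the Benjamini-Hochberg method, was under 0.05 and the means of the groups differed at least 2-fold. In bulk RNA, fewer cells of a type and less RNA per cell cannot be told apart. Levels of different genes are not compared, since each probe set has its own response.

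The label check held. Mageb16 read 7.0 to 7.11 in undifferentiated KD ESCs, against 10.03 to 10.09 in SCR ESCs and 9.93 to 9.99 in WT ESCs, and all KD arrays lay below those of both other lines at every time. The 6 pluripotency markers fixed for the lists (summed linear signals) were alike in undifferentiated cells, at 19110 to 20920 in KD, 19430 to 21110 in SCR and 19250 to 20560 in WT ESCs. In 4-day EBs their sums were 1504 to 3122 in KD EBs and 12170 to 13730 in SCR EBs, against 2784 to 6010 in WT EBs. The 4-day SCR EBs thus stood apart from both other lines, and the KD against SCR differences at day 4 that are printed below stand with their SCR against WT counterparts.

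Between lines, the 8 retinoid genes did not differ at the 2-fold level in undifferentiated ESCs or 2-day EBs. Differences of SCR from the other lines began at day 4, and those of KD against WT at day 12. KD against SCR, 0 of 8 differed at day 0 and 0 at day 2 (limma), where 1.21% and 4.76% of all genes did, and at an unadjusted p under 0.05 Crabp1 and Crabp2 stood out on both days. At day 2 both also passed the adjusted p and missed only the 2-fold minimum, with Crabp1 at 0.70 (adjusted p 0.0336) and Crabp2 at 0.91 (0.00279), and SCR minus WT was -0.85 for Crabp1 and -0.79 for Crabp2. The Crabp2 difference went past 2-fold without KD replicate 1 (1.01) or SCR replicate 2 (1.03). In 4-day EBs 4 of 8 differed (11.8% of all genes), in 12-day EBs 6 (14.2%), in 15-day EBs 4 (16.5%) and in 22-day EBs 6 (16.5%). Over all 6 times 15 of 48 comparisons were higher and 5 lower in KD, 20 in all, against 10.8% for all genes.

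KD against WT, 0 of 8 genes differed in undifferentiated ESCs (1.53% of all genes), 0 in 2-day EBs (0.964%) and 0 in 4-day EBs (0.404%), with 1, 0 and 1 gene at an unadjusted p under 0.05 (limma). Among later EBs 4 differed after 12 days (11%), 5 after 15 days (21%) and 6 after 22 days (23%). SCR against WT, 0 differed at day 0 (0.9%) and 0 at day 2 (2.6%), with 2 genes at an unadjusted p under 0.05 on each of these days (limma), and then 3 after 4 days (10.7%), 2 after 12 (4.42%), 4 after 15 (7.77%) and 2 after 22 (9.25%). Over all 6 times KD was higher than WT in 12 and lower in 3 of 48 comparisons (9.65% of all genes differed), and SCR was higher than WT in 6 and lower in 5 (5.94%). These comparisons share samples and are given side by side, not as independent evidence.

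**Figure D1:**
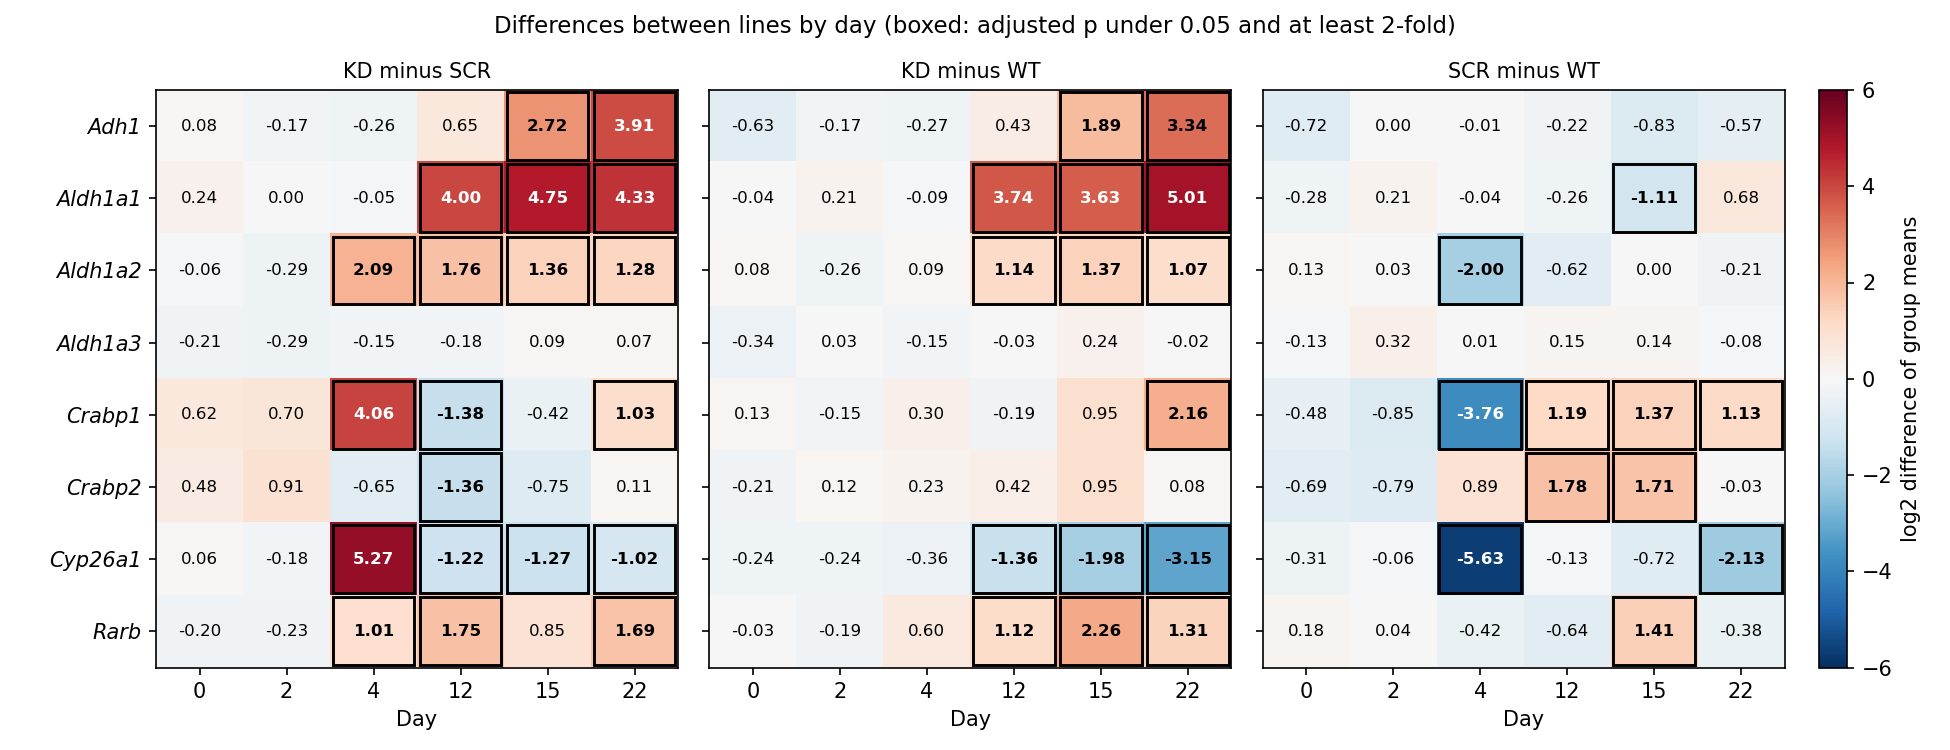
Differences of group means (log2) for the 8 genes, KD minus SCR, KD minus WT and SCR minus WT, by day; boxes mark those at least 2-fold that had an adjusted p under 0.05. KD exceeded both other lines in Aldh1a1 from day 12 (3.63 to 5.01) and in Adh1 from day 15 (1.89 to 3.91), while Cyp26a1 was lower in KD than in both at days 12 to 22 (-3.15 to -1.02).

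Against day 0, most movement was upward. In the KD line 25 of 40 comparisons of a later day with day 0 were higher and 1 lower (27.1% of all genes differed in either direction), in the SCR line 15 were higher and 1 lower (17.4%), and in the WT line 17 were higher and 0 lower (16%). The only lower values passing the test were Aldh1a2 in 2-day KD EBs (-1.02) and in 4-day SCR EBs (-1.05). By day, the KD line had 2, 5, 6, 7 and 6 of 8 genes past the test at days 2, 4, 12, 15 and 22 (12.4%, 20.7%, 31.7%, 34.5% and 36.1% of all genes). The SCR line had 1, 2, 4, 4 and 5 (10.1%, 14.4%, 17.9%, 21.6% and 22.9%), and the WT line 1, 4, 4, 5 and 3 (11.7%, 21.8%, 16.4%, 14.2% and 15.8%). The count of 1 in SCR and in WT at day 2 is about the share of all genes.

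**Figure D2:**
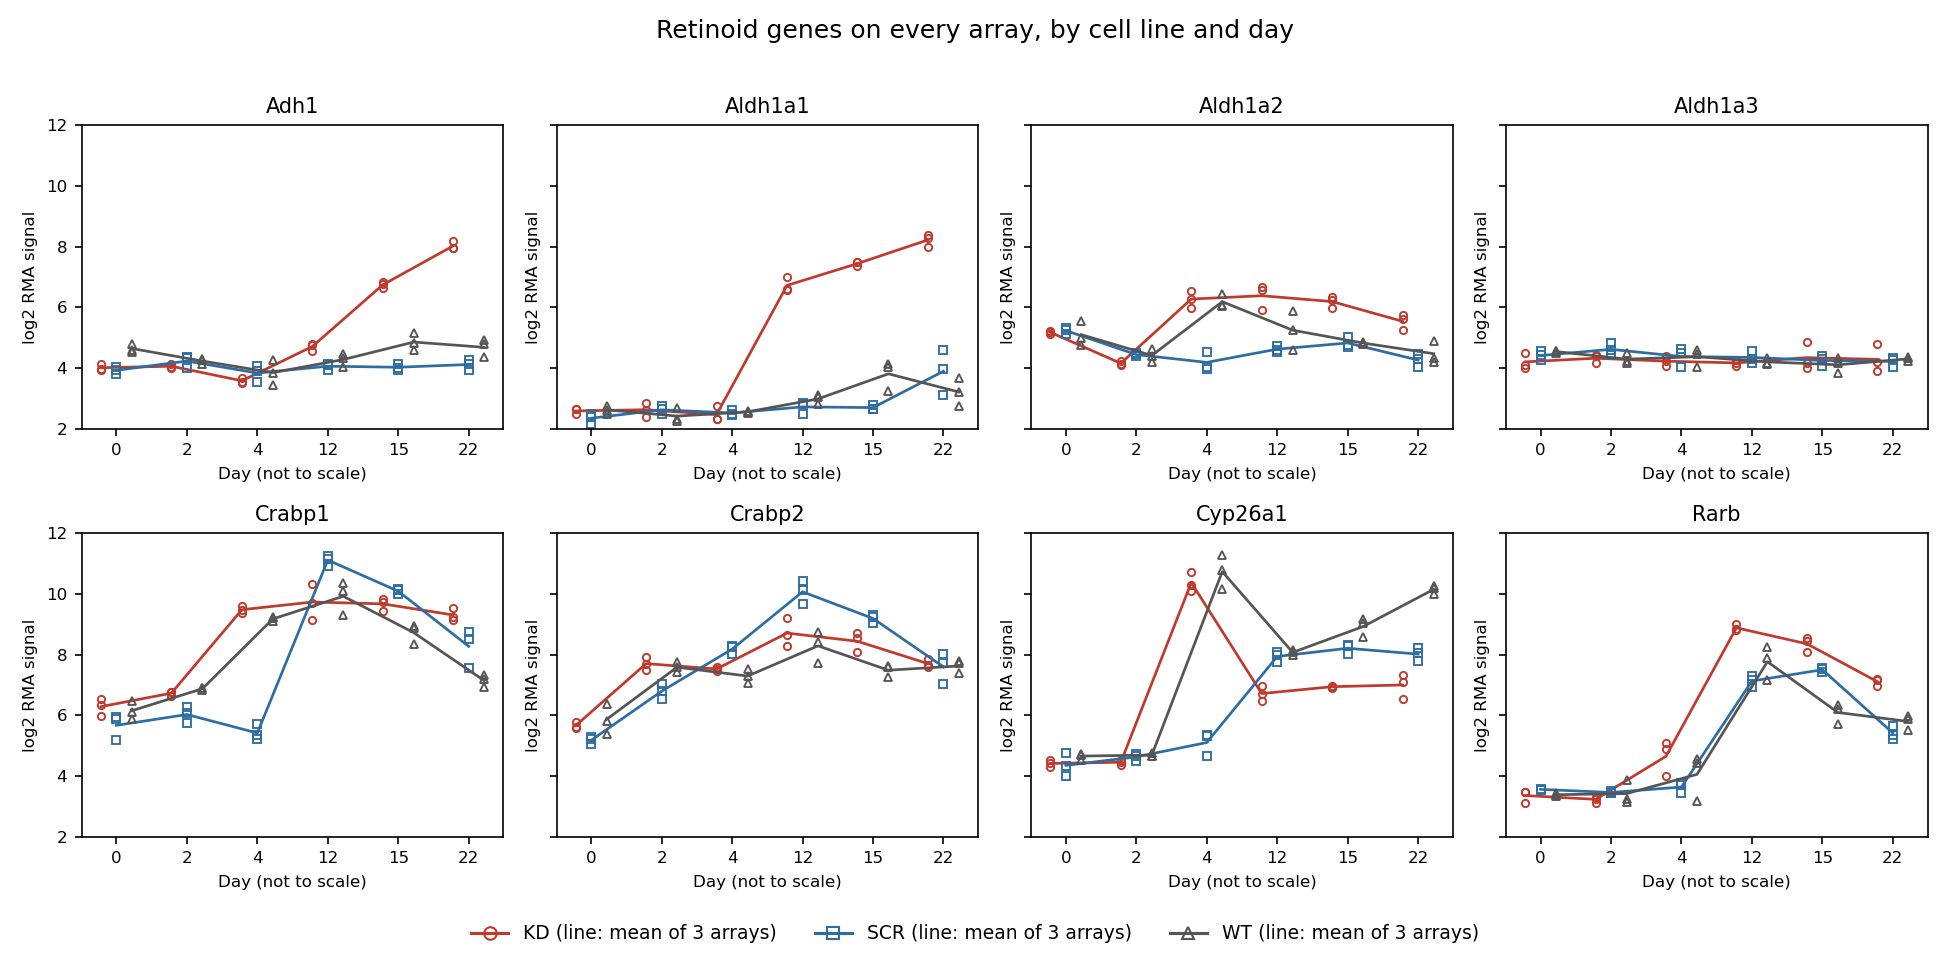
Log2 RMA signal of each retinoid gene on every array, by day (spaced evenly, not to scale), with lines through the means of 3 arrays for KD, SCR and WT. At day 22 Aldh1a1 (8.0 to 8.40) and Adh1 (7.94 to 8.18) stood far above the other lines in KD EBs, Cyp26a1 and Crabp1 were low at day 4 in SCR EBs only, and Aldh1a3 lay flat between 3.84 and 4.86.

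Adh1 encodes a cytosolic alcohol dehydrogenase that can oxidise retinol, is abundant in adult liver and gut, and lies at chr3:138277585-138290698 (GRCm38.p6). Adh1 remained low in all lines up to 4 days. In undifferentiated ESCs the WT arrays (4.54, 4.60 and 4.79) lay above those of KD (3.93 to 4.13) and SCR (3.79 to 4.05). These differences were under 2-fold, with KD minus WT at -0.63 (adjusted p 0.00269, limma) and SCR minus WT at -0.72 (0.000935). In 12-day EBs Adh1 read 4.80, 4.56 and 4.77 in KD, 3.95, 4.10 and 4.13 in SCR and 4.34, 4.03 and 4.47 in WT. The KD arrays lay above all others, but the difference to SCR (0.65, adjusted p 0.000396 by limma) was under 2-fold.

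In 15-day EBs Adh1 read 6.83, 6.77 and 6.63 in KD, 4.13, 4.01 and 3.94 in SCR and 4.58, 5.16 and 4.83 in WT. In 22-day EBs it read 7.96, 7.94 and 8.18 in KD, 4.27, 3.95 and 4.13 in SCR and 4.36, 4.91 and 4.78 in WT. No KD array overlapped another line on either day. In 15-day EBs KD exceeded SCR by 2.72 (SE 0.152, adjusted p 1.42e-18) and WT by 1.89 (5.67e-14), and in 22-day EBs SCR by 3.91 (3.81e-24) and WT by 3.34 (8.66e-22). Relative to undifferentiated KD ESCs the gene rose by 2.73 and 4.02, and it did not pass the test against day 0 in SCR or WT EBs at any time. All SCR arrays of these days and the undifferentiated KD arrays were under the lower quartile, so the sizes of these differences are not exact.

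Aldh1a1 is a retinaldehyde dehydrogenase found in the dorsal retina, liver and several adult epithelia (chr19:20492583-20643463). In ESCs and EBs up to 4 days it was at the bottom of the scale in every line, with KD arrays at 2.64, 2.64 and 2.48 at day 0 and 2.75, 2.33 and 2.32 at day 4. In 12-day KD EBs it read 7.0, 6.57 and 6.6, against 2.50, 2.80 and 2.86 in SCR and 3.05, 2.80 and 3.10 in WT EBs. Every KD array was more than 3 log2 units above every array of the other lines.

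The gap remained in 15-day EBs, where Aldh1a1 read 7.35, 7.49 and 7.49 in KD, 2.78, 2.65 and 2.66 in SCR and 3.25, 4.14 and 4.04 in WT. In 22-day EBs the values were 8.27, 8.40 and 8.0 in KD, 3.12, 4.59 and 3.97 in SCR and 2.76, 3.66 and 3.21 in WT. KD was thus the highest line without overlap on all 3 late days. The differences to SCR were 4.00 (SE 0.219, adjusted p 1.01e-18), 4.75 (3.91e-21) and 4.33 (2.58e-20) at days 12, 15 and 22, and those to WT 3.74 (1.15e-17), 3.63 (1.19e-17) and 5.01 (2.33e-22). Since the other lines were near the low end, these sizes are not exact.

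Smaller movements of Aldh1a1 were seen in the controls. Relative to day 0 it was higher by 1.55 in 22-day SCR EBs (adjusted p 5.9e-08, limma) and by 1.19 in 15-day WT EBs. In 15-day EBs it was lower in SCR than in WT (-1.11, adjusted p 6.65e-05, limma). That difference went under the 2-fold minimum when WT replicate 2 (-0.95) or, barely, 3 was left out. All day 0 arrays, all 15-day SCR and WT arrays and 2 of the 22-day SCR arrays were under the lower quartile. The sizes of these movements are therefore not exact.

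Aldh1a2 makes most of the retinoic acid of the early embryonic mesoderm (chr9:71215789-71296243). Undifferentiated ESCs of all lines had intermediate signals, at 5.11, 5.22 and 5.20 in KD, 5.25, 5.12 and 5.33 in SCR and 5.54, 4.77 and 4.99 in WT. In 4-day EBs it read 6.29, 6.55 and 5.98 in KD, 3.97, 4.05 and 4.54 in SCR and 6.44, 6.08 and 6.04 in WT. KD and WT overlapped (difference 0.09) and SCR stood below both. KD exceeded SCR by 2.09 (SE 0.216, adjusted p 9.58e-11), and SCR lay under WT by nearly as much (-2.00, 3.21e-10).

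At later times Aldh1a2 was higher in KD than in both other lines. In 12-day EBs it read 6.66, 5.91 and 6.58 in KD, 4.74, 4.52 and 4.61 in SCR and 4.60, 5.89 and 5.25 in WT, and in 15-day EBs 6.33, 5.99 and 6.25 in KD, 5.01, 4.76 and 4.71 in SCR and 4.83, 4.78 and 4.86 in WT. In 22-day EBs it read 5.62, 5.24 and 5.76 in KD, 4.45, 4.31 and 4.03 in SCR and 4.89, 4.19 and 4.34 in WT. KD arrays lay above those of both lines, though at day 12 the lowest KD array (5.91) was close to the highest WT array (5.89). KD exceeded SCR by 1.76 (adjusted p 5.19e-09), 1.36 (9.45e-07) and 1.28 (3.14e-06) at days 12, 15 and 22.

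Against WT, the Aldh1a2 differences were 1.14 (2.62e-05), 1.37 (6.57e-07) and 1.07 (3.84e-05). The first dropped to 0.81 without WT replicate 1 and to just under 1 without KD replicate 1 of day 12, and the last to 0.93 without WT replicate 2 and 0.96 without KD replicate 3 of day 22. The mean of days 12, 15 and 22 differed in both comparisons, as it did for Adh1 and Aldh1a1.

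Aldh1a3, the retinaldehyde dehydrogenase of the ventral retina and the nasal region (chr7:66390892-66427477), had a pair of probe sets that disagreed. The brighter one, used here by rule, lay between 3.84 and 4.86 in all 54 arrays and passed the test in no comparison between lines or with day 0 (limma). These values lie about the lower quartile of the arrays (4.23 to 4.51), so a flat signal here does not show an unchanged gene. The dimmer one read 3.27, 3.67 and 3.69 in 12-day KD EBs and 5.18, 4.50 and 5.19 in SCR EBs, against 3.33, 3.34 and 3.23 in WT EBs, so that SCR stood above both.

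On the dimmer Aldh1a3 probe set SCR and KD EBs peaked at different times. In 22-day EBs it read 4.83, 4.93 and 5.37 in KD, 3.19, 3.63 and 3.22 in SCR and 3.55, 3.24 and 3.01 in WT, without overlap of KD with the others. KD minus SCR was -1.41 (adjusted p 6.05e-08, limma) at day 12 and 1.70 (8.22e-10) at day 22, KD minus WT 1.78 (1.61e-10) at day 22, and SCR minus WT 1.66 (1.03e-08) at day 12 and 1.21 (2.52e-06) at day 15. Which probe set reports the gene was not tested.

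**Figure D3:**
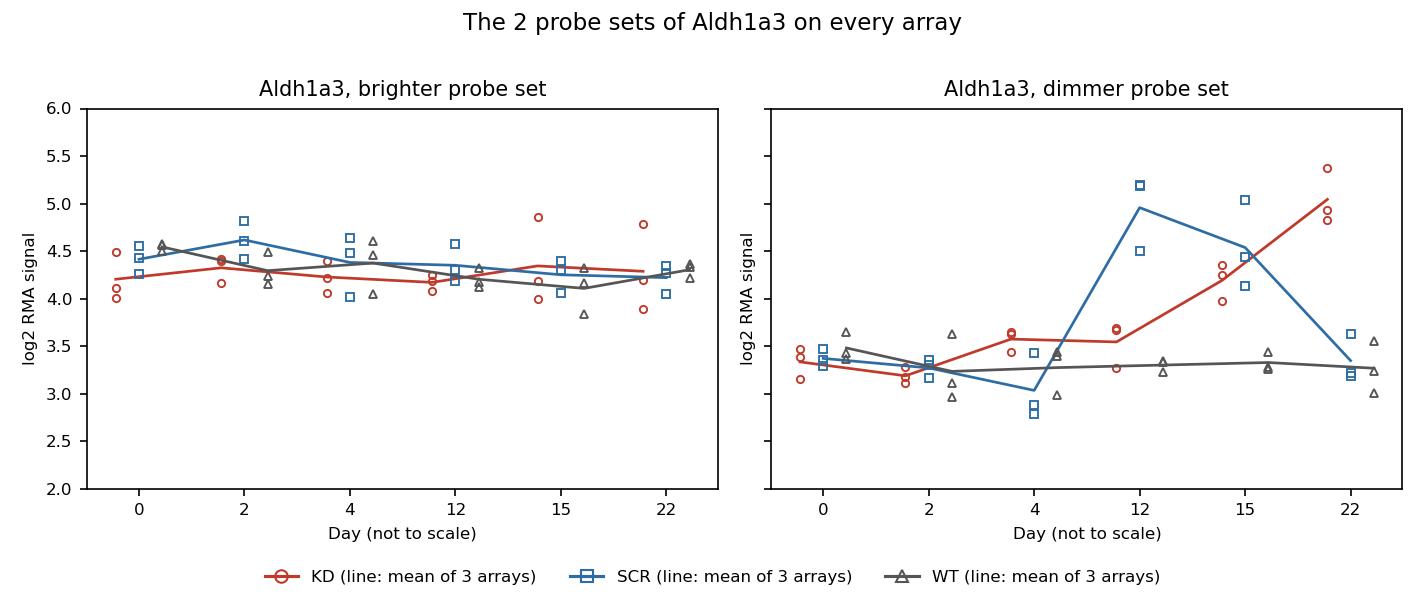
Log2 RMA signal of the brighter (left) and dimmer (right) Aldh1a3 probe sets on every array, by day (spaced evenly), with lines through the means of 3 arrays for KD, SCR and WT. The brighter one is flat, while on the dimmer one 12-day SCR EBs (4.50 to 5.19) and 22-day KD EBs (4.83 to 5.37) stand out.

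Crabp1, a cytosolic retinoic acid binding protein of the embryonic hindbrain, neural crest and mesenchyme (chr9:54764748-54773110), was moderate in undifferentiated ESCs, at 6.54, 5.98 and 6.33 in KD, 5.89, 5.18 and 5.93 in SCR and 6.48, 6.09 and 5.88 in WT. In 4-day EBs it read 9.59, 9.38 and 9.46 in KD, 5.34, 5.20 and 5.70 in SCR and 9.19, 9.10 and 9.23 in WT. KD and WT EBs were both high and SCR EBs low with a wide gap. KD exceeded SCR by 4.06 (SE 0.251, adjusted p 2.79e-17), SCR lay under WT (-3.76, 3.7e-16), and KD minus WT was 0.30.

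By day 12 the order had turned, with Crabp1 at 9.14, 10.34 and 9.71 in KD, 11.25, 10.93 and 11.16 in SCR and 9.30, 10.37 and 10.09 in WT. All SCR arrays lay above all others. KD was lower than SCR (-1.38, adjusted p 1.09e-05), and SCR higher than WT (1.19, 0.000329; 0.88 without WT replicate 1). In 15-day EBs the arrays read 9.74, 9.43 and 9.84 in KD, 10.17, 9.98 and 10.11 in SCR and 8.35, 8.95 and 8.86 in WT, where SCR exceeded WT (1.37, 2.34e-05), KD minus SCR was -0.42 and KD minus WT 0.95 (0.00113, under 2-fold).

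At day 22 the Crabp1 order was KD, SCR, WT, with 9.24, 9.14 and 9.53 in KD, 7.55, 8.75 and 8.51 in SCR and 7.31, 6.92 and 7.19 in WT EBs. No pair of lines overlapped. KD exceeded WT by 2.16 (adjusted p 6.95e-10) and SCR by 1.03 (0.000552), the difference to SCR dropping to 0.67 without SCR replicate 1 and 0.92 without KD replicate 3. SCR exceeded WT by 1.13 (0.000315; 0.89 without SCR replicate 2). Relative to day 0, Crabp1 rose by 3.19, 3.45, 3.39 and 3.02 at days 4, 12, 15 and 22 in KD, by 5.45, 4.42 and 2.60 at days 12, 15 and 22 in SCR, and by 3.02, 3.77 and 2.57 at days 4, 12 and 15 in WT.

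Crabp2, which carries retinoic acid to the receptors in the nucleus (chr3:87948693-87953372), rose as early as day 2 in every line. In undifferentiated ESCs it read 5.60, 5.58 and 5.79 in KD, 5.05, 5.20 and 5.27 in SCR and 5.39, 6.38 and 5.82 in WT. In 2-day EBs it read 7.50, 7.92 and 7.68 in KD, 6.52, 7.04 and 6.81 in SCR and 7.42, 7.74 and 7.59 in WT, a rise of 2.04 in KD, 1.62 in SCR and 1.72 in WT over day 0. It was the only one of the 8 genes that passed the test as higher than day 0 in every line at every later time.

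In 4-day EBs Crabp2 read 7.51, 7.46 and 7.60 in KD, 8.28, 8.01 and 8.24 in SCR and 7.06, 7.51 and 7.30 in WT. Here SCR was the highest line without overlap, unlike for Crabp1, Cyp26a1 and Aldh1a2 on that day. KD minus SCR was -0.65 (adjusted p 0.0213) and SCR minus WT 0.89 (0.00192), both under 2-fold.

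Crabp2 reached its highest values in 12-day SCR EBs. On that day it read 8.28, 9.21 and 8.63 in KD, 10.42, 9.65 and 10.13 in SCR and 7.72, 8.73 and 8.41 in WT EBs. SCR lay above both lines without overlap. KD was lower than SCR (-1.36, SE 0.235, adjusted p 4.96e-06) and SCR higher than WT (1.78, 1.43e-07). In 15-day EBs the values were 8.70, 8.07 and 8.54 in KD, 9.29, 9.05 and 9.23 in SCR and 7.26, 7.61 and 7.58 in WT, and SCR again exceeded WT (1.71, 1.39e-07), whereas KD minus SCR (-0.75) and KD minus WT (0.95) were under 2-fold. The 3 lines overlapped at day 22.

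Both binding protein genes varied with the arrays of 12-day EBs in the same way. Replicate 2 of KD was the highest KD array for Crabp1 (10.34) and Crabp2 (9.21) and the lowest for Aldh1a2 (5.91). The same array had the lowest values of the liver and yolk sac products Rbp4 (10.08, with 12.24 and 11.77 on the other KD arrays) and Ttr (10.52, with 12.54 and 12.14). In WT EBs of that day, replicate 1 was the lowest array for Crabp1 (9.30), Crabp2 (7.72), Rarb (7.15) and Aldh1a2 (4.60).

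Cyp26a1 encodes the cytochrome P450 that removes retinoic acid in the early embryo (chr19:37697738-37701536), and its promoter is printed above. In undifferentiated ESCs it read 4.41, 4.30 and 4.52 in KD, 3.99, 4.31 and 4.74 in SCR and 4.54, 4.70 and 4.72 in WT, and 2-day EBs were alike. In 4-day EBs it read 10.73, 10.09 and 10.29 in KD, 4.66, 5.34 and 5.30 in SCR and 11.28, 10.15 and 10.77 in WT. KD and WT overlapped at a high level and SCR remained low.

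The 4-day difference of KD over SCR in Cyp26a1, 5.27 (SE 0.203, adjusted p 5.8e-24), was the largest among the 8 genes in this comparison, and it came with a SCR minus WT difference of -5.63 (7.11e-25). KD minus WT was -0.36 (adjusted p 0.535, 95% interval -0.77 to 0.05, limma). Relative to day 0 the gene rose by 5.96 in KD EBs, its change in SCR EBs was 0.75 and under 2-fold, and it rose by 6.08 in WT EBs.

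After day 4, the lines separated in another order. In 12-day EBs Cyp26a1 read 6.95, 6.48 and 6.71 in KD, 7.75, 8.08 and 7.98 in SCR and 7.99, 8.15 and 8.07 in WT, and in 15-day EBs 6.97, 6.91 and 6.94 in KD, 8.03, 8.32 and 8.27 in SCR and 8.57, 9.17 and 9.03 in WT. In 22-day EBs it read 7.10, 6.55 and 7.34 in KD, 7.79, 8.20 and 8.05 in SCR and 10.01, 10.25 and 10.18 in WT. KD was the lowest line on all 3 days without overlap, and WT the highest at days 15 and 22.

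For Cyp26a1, KD minus SCR was -1.22 (adjusted p 2.4e-06), -1.27 (1.14e-06) and -1.02 (4.37e-05) at days 12, 15 and 22, and KD minus WT was -1.36 (4.27e-07), -1.98 (3.46e-11) and -3.15 (5.01e-17). The 22-day difference to SCR lay at the 2-fold minimum and went under it without KD replicate 2 (-0.79), without SCR replicate 2 (-0.92) and, barely, without SCR replicate 3. SCR differed from WT at day 22 (-2.13, 1.39e-11). Cyp26a1 was still above day 0 on these days in every line, by 2.30 to 2.59 in KD, 3.59 to 3.86 in SCR and 3.42 to 5.49 in WT.

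Rarb encodes the retinoic acid receptor whose promoter is printed beside that of Cyp26a1. It was near the low end in ESCs and 2-day EBs of all lines. In 4-day EBs it read 4.00, 5.07 and 4.87 in KD, 3.69, 3.44 and 3.77 in SCR and 3.18, 4.56 and 4.41 in WT. KD lay above SCR and overlapped WT. The difference to SCR (1.01, SE 0.248, adjusted p 0.000787) was at the minimum, and leaving out KD replicate 2 (0.80) or 3 (0.90) or SCR replicate 2 (0.92) took it below. SCR minus WT was -0.42 (adjusted p 0.182, limma) and KD minus WT 0.60 (0.317).

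In 12-day EBs of KD and WT Rarb was at its highest, with 8.85, 8.99 and 8.80 in KD, 7.28, 6.94 and 7.16 in SCR and 7.15, 8.26 and 7.88 in WT. In 15-day EBs it read 8.56, 8.07 and 8.43 in KD, 7.57, 7.41 and 7.52 in SCR and 6.34, 5.71 and 6.22 in WT, and in 22-day EBs 7.16, 6.97 and 7.19 in KD, 5.22, 5.66 and 5.36 in SCR and 5.52, 5.97 and 5.89 in WT. KD was above both lines on each of these days without overlap, and SCR was between them at day 15.

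Rarb in KD exceeded SCR by 1.75 (adjusted p 1.1e-07) at day 12 and 1.69 (2.02e-07) at day 22, with 0.85 (0.00347, under 2-fold) at day 15. It exceeded WT by 1.12 (0.000219; 0.81 without WT replicate 1), 2.26 (1.93e-10) and 1.31 (1.29e-05) at days 12, 15 and 22, and SCR exceeded WT at day 15 (1.41, 1.17e-05). From day 0 it rose by 5.53, 5.0 and 3.75 in KD, 3.57, 3.94 and 1.86 in SCR and 4.38, 2.71 and 2.41 in WT at these times. From day 12, KD was thus above both other lines in Rarb and below both in Cyp26a1, all of these differences passing the test except that of Rarb to SCR at day 15.

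The wider pathway was followed with a list of 48 other genes for retinol transport, oxidation, breakdown, receptors and retinoic acid-induced genes, 33 of which had a probe set. KD against SCR, 10 of 33 were higher at day 12, 10 at day 15 and 10 at day 22 (30.3% each, against 8.67%, 10.3% and 11.9% of all genes), with 1, 0 and 0 lower (5.48%, 6.18% and 4.62% of all genes). The median difference of the list was 0.32, 0.47 and 0.51, against 0.01, -0.02 and -0.05 over all genes. KD against WT, 6, 13 and 12 were higher on these days (18.2%, 39.4% and 36.4%, against 5.66%, 12.2% and 15.9% of all genes) and 2, 2 and 0 lower (5.35%, 8.75% and 7.16% of all genes). SCR against WT, 1, 5 and 6 were higher (1.41%, 4.4% and 6.71% of all genes) and 4, 5 and 4 lower (3.01%, 3.37% and 2.54%).

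Early on, few of the 33 differed KD against SCR. At days 0 and 2, 1 was higher and 1 lower on each day (3.03% each). Of all genes, 0.709% were higher and 0.503% lower at day 0, and 2.35% and 2.4% at day 2. At day 0 Fabp5, a fatty acid and retinoic acid binding protein, was higher (1.17) and the homeobox gene Meis2 lower (-1.05). At day 2 Fabp5 was higher (1.06) and the repressor Bhlhe40 lower (-1.49). Fabp5 read 9.07, 8.87 and 9.07 in KD, 7.82, 7.97 and 7.71 in SCR and 8.64, 8.83 and 8.74 in WT ESCs. Its day 2 means were 11.82 in KD, 10.76 in SCR and 11.59 in WT. SCR thus stood below both other lines in Fabp5 on both days, and KD was close to WT. Meis2 means at day 0 were 5.61 in KD, 6.66 in SCR and 6.35 in WT. For Bhlhe40 at day 2 they were 7.09, 8.58 and 7.81, with WT between the other lines. At day 4, 4 were higher and 2 lower (12.1% and 6.06%, against 5.68% and 6.15% of all genes), led by Hoxb1, a hindbrain Hox gene and direct retinoic acid target. Next came Meis1, with group means of 5.61 in KD, 3.47 in SCR and 5.28 in WT, and Meis2, with 7.95, 6.28 and 8.11. The lower genes were Bhlhe40, with means of 5.36 in KD, 8.51 in SCR and 5.42 in WT, and Dhrs3.

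Hoxb1 read 7.48, 7.86 and 7.56 in 4-day KD EBs and 3.19, 3.24 and 3.57 in SCR EBs, against 8.08, 6.77 and 7.64 in WT EBs. Like Cyp26a1, it was low in SCR EBs alone, with KD minus SCR at 4.30 (adjusted p 3.95e-22, limma) and SCR minus WT at -4.16. Dhrs3, which reduces retinal back to retinol, went the other way at this time, with 5.0, 5.31 and 5.21 in KD, 6.18, 7.17 and 6.86 in SCR and 4.76, 4.94 and 5.01 in WT EBs. Later Dhrs3 was higher in KD than in SCR, by 1.75, 2.17 and 2.53 at days 12, 15 and 22, and higher than in WT by 1.48 and 2.15 at days 15 and 22.

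In late EBs the list was led by genes of retinol carriage and by hepatic enzymes. Rbp4, the plasma retinol carrier, read 12.24, 10.08 and 11.77 in 12-day KD EBs, 7.19, 6.55 and 6.99 in SCR EBs and 10.22, 10.69 and 10.48 in WT EBs. KD exceeded SCR by 4.45, 5.03 and 3.81 at days 12, 15 and 22, SCR minus WT was -3.55, -4.07 and -3.25, and KD did not differ 2-fold from WT. Ttr, its partner in plasma, differed in the same order but also between KD and WT, KD exceeding SCR by 6.35, 5.56 and 4.16 and WT by 2.28, 1.91 and 2.17, while SCR minus WT was -4.07, -3.65 and -1.99.

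Cyp3a11, a hepatic and intestinal P450, read 11.07, 11.62 and 10.53 in 22-day KD EBs, 2.61, 2.85 and 2.69 in SCR EBs and 3.41, 6.17 and 5.71 in WT EBs (KD minus SCR 8.36, adjusted p 9.57e-23, limma). Aldh1a7, a close paralogue of Aldh1a1 whose probe set may share signal with it, exceeded SCR in KD by 4.80, 5.82 and 5.48 at days 12, 15 and 22. Both genes separated KD from SCR without overlap at day 22. The widely expressed receptor genes Rarg, Rxra, Rxrb and Ppard did not differ 2-fold KD against SCR on any day, Rarg coming closest of the 4 in late EBs with -0.80 at day 12 (adjusted p 2.6e-06, limma). Against WT, Rarg was lower in KD at days 12 (-1.20, 6.29e-10) and 15 (-1.22, 1.78e-10).

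Of the 13 listed retinoic acid-induced genes 10 were measured. KD against SCR, 5, 3 and 2 were higher at days 12, 15 and 22 (8.67%, 10.3% and 11.9% of all genes). On these days 1, 0 and 0 were lower (5.48%, 6.18% and 4.62%). The 2 higher at day 22 and the 1 lower at day 12 are near these shares. KD against WT, 4, 6 and 6 were higher (5.66%, 12.2% and 15.9% of all genes) and 1, 1 and 0 lower (5.35%, 8.75% and 7.16%). Tgm2, a transglutaminase gene induced by retinoic acid, read 11.19, 10.03 and 10.85 in 12-day KD EBs, 7.27, 6.84 and 7.05 in SCR EBs and 8.62, 8.37 and 8.59 in WT EBs. The 3 lines were apart, and KD exceeded SCR by 3.64, 3.86 and 3.75 and WT by 2.16, 2.27 and 2.55 at days 12, 15 and 22.

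Stra8 was the 1 induced gene that was lower in KD than in SCR at day 12. This gatekeeper of meiosis read 5.22, 5.61 and 5.30 in 12-day KD EBs, 6.81, 6.25 and 6.32 in SCR EBs and 8.75, 9.26 and 9.21 in WT EBs. The 3 lines did not overlap, and KD was lower than SCR (-1.08) and WT (-3.70). Nr2f1, an orphan receptor gene of neural and mesenchymal cells, was higher than in WT in both other lines at days 12, 15 and 22, by 1.48, 2.98 and 3.57 in KD and by 1.71, 3.57 and 4.13 in SCR, and KD minus SCR was under 2-fold.

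**Figure D4:**
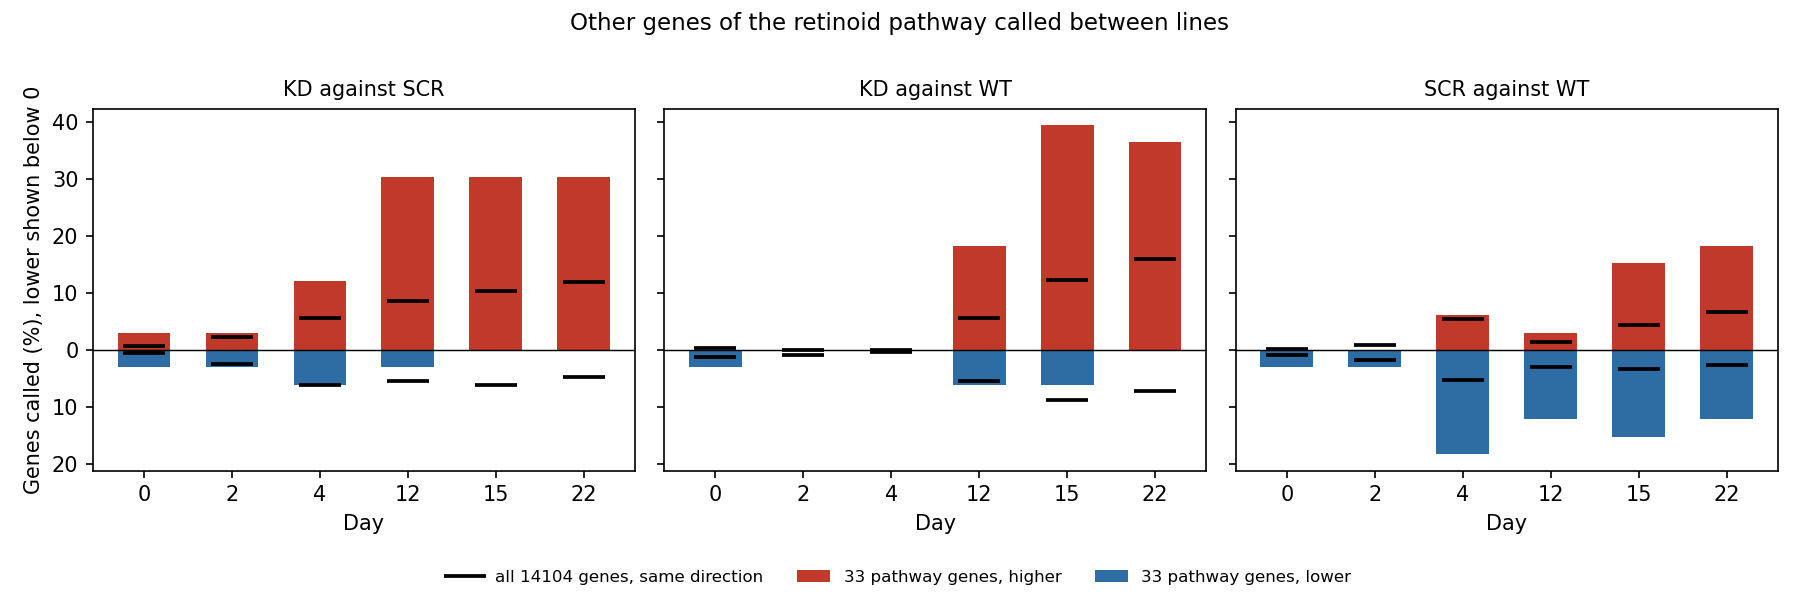
Share (%) of the 33 measured pathway genes that were higher (above 0) or lower (drawn below 0) by day, for KD against SCR, KD against WT and SCR against WT; black lines give the share of all 14104 genes in the same direction. KD against SCR, 30.3% were higher at days 12, 15 and 22, and SCR against WT, 18.2% were lower at day 4.

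Markers of several cell types moved with the late differences. Of all genes, 8.67%, 10.3% and 11.9% were higher KD against SCR at days 12, 15 and 22, and 4.62% were lower at day 22. The pluripotency sums were 1182 to 1701 in 12-day KD EBs, 9932 to 12740 in SCR and 10180 to 13340 in WT, and 4558 to 4683 in 22-day KD EBs, 12010 to 15370 in SCR and 14060 to 14170 in WT, with all 6 markers lower KD against SCR at day 22. The summed linear signals of 5 liver markers were 31140 to 33980 in 22-day KD EBs, 73.76 to 206.1 in SCR EBs and 600.5 to 4831 in WT EBs, with all 5 higher KD against SCR at days 12, 15 and 22. In 12-day SCR EBs all 5 were under the lower quartile. The sums of 5 gut epithelium markers were 4376 to 5028 in 22-day KD EBs, 90.03 to 101.9 in SCR and 225.5 to 442.3 in WT, and all 5 were higher KD against SCR.

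Beside the 22-day counts of higher markers that follow, 11.9% of all genes were higher KD against SCR. The 7 visceral and yolk sac endoderm markers, 4 of them higher KD against SCR at day 22, summed to 19940 to 23200 in KD, 1219 to 2430 in SCR and 8678 to 12310 in WT EBs of that day. Ttr, named above, is 1 of these 7. The mesenchyme list (5 of 6 markers higher KD against SCR at day 22) summed to 23300 to 26740 in KD, 3241 to 3724 in SCR and 2095 to 2383 in WT EBs of 22 days, and the epicardium list (4 of 5 higher) to 621.5 to 846.5 in KD, 75.71 to 84.9 in SCR and 71.58 to 80.63 in WT. At day 22 the cardiomyocyte sums (3 of 5 higher KD against SCR) were 2651 to 4842 in KD, 109 to 145.4 in SCR and 161.8 to 199.3 in WT, those of endothelium (3 of 5) 896.5 to 972.4 in KD, 112.6 to 129.2 in SCR and 161.3 to 205.9 in WT, and those of stratified epithelium (4 of 4) 1144 to 1399 in KD, 61.91 to 65.81 in SCR and 61.1 to 64.28 in WT. The neural markers summed to 658.6 to 791.6 in KD, 1998 to 2064 in SCR and 332.9 to 410.2 in WT at day 15. At that time 5 of 6 were lower KD against SCR (6.18% of all genes), and Crabp1 and Crabp2 were also highest in SCR. At day 22 the neural sums were 1447 to 1819 in KD, overlapping 1575 to 3065 in SCR, and 176.4 to 258.7 in WT, while Crabp1 was highest in KD. The part of these cell types in the retinoid gene differences was not tested.

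Across the 18 group means, each retinoid gene was set beside all 14103 other genes by Pearson's r, as a description over groups that share lines and days. Adh1 was most like Cyp2c70 (0.983), Tspan1 (0.983) and Tm4sf4 (0.981), and Aldh1a1 most like Arg1 (0.982), Lox (0.979) and Pamr1 (0.979). Cyp26a1 was most like Dkk1 (0.982), Lhx1 (0.963) and Sccpdh (0.951), Crabp1 like Col9a1 (0.935), Fbn2 (0.933) and Pcdhb22 (0.925), and Rarb like Flrt2 (0.982), Prkg1 (0.981) and Sema3a (0.976).

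The matches of Aldh1a2 (Fzd4, 0.911), Crabp2 (Gpsm2, 0.899) and Aldh1a3 (Cyp2b9, 0.726) were less close. The 3 genes named for Cyp26a1 were also the closest 3 by Spearman's rho and over the 54 single arrays. For the other genes 0 or 1 of the 3 remained under Spearman's rho, so that their order depends on the measure. Among the retinoid genes themselves the closest pairs were Adh1 with Aldh1a1 (0.886), Crabp1 with Rarb (0.821) and Crabp1 with Crabp2 (0.74).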

How the data were processed

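Total RNA of KD, SCR and WT ESCs and EBs was hybridised to 54 Affymetrix Mouse430 2.0 arrays. The authors deposited log2 values per probe set, made with RMA (background correction, quantile normalisation and median polish), and the submitters' notes name Affymetrix Expression Console and Partek 6.6, the methods R packages. RMA signals compress changes near background. Of 30939 probe sets, 25596 had 1 symbol, 685 several and 4658 none, and for each of 14104 genes the brightest probe set was used.

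The values were fitted in R 4.3.3 with limma 3.58.1 as 18 group means of line and day, without a block (36 residual degrees of freedom), with moderated tests and Benjamini-Hochberg adjustment over all probe sets per comparison. The procedure was checked on simulated data. Thresholds followed the study's methods (adjusted p under 0.05, at least 2-fold). All 9 retinoid genes are named, pathway genes were named as up to 3 per direction and day KD against SCR, and Dhrs3, Stra8, Tgm2, Nr2f1 and the receptor genes were singled out for other days or lines after their values were seen. Members and lists were chosen with earlier results of these data known. No array pair was identical. Precision is limited by the 3 arrays per group. Alternatives covered scaling, probe-set choice, filters, array weights, thresholds, a replicate block and leaving arrays out.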

Additional observations from a re-analysis of the deposited data

Results flagged for a closer look

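The following differences in the change from day 0 between lines passed limma's interaction test and the 2-fold minimum, 1 or 2 days being given per gene and pair of lines, and they were looked at again because the same change had a different size or direction in different lines. At day 4, KD against SCR, the change was larger by 2.14 for Aldh1a2 (adjusted p 2.91e-07), 3.45 for Crabp1 (1.73e-10) and 5.21 for Cyp26a1 (2.47e-18), and SCR against WT the differences were of like size in the other direction, at -2.13 (3.71e-07), -3.28 (7.46e-10) and -5.33 (1.69e-18). Crabp2 went the other way on that day, at -1.14 KD against SCR (0.00604) and 1.58 SCR against WT (0.000204). These genes share the same SCR arrays, so these are not separate pieces of evidence.

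In late EBs, the change in KD against that in SCR differed by 3.83 for Adh1 at day 22 (2.31e-18), 4.51 for Aldh1a1 at day 15 (2.76e-15), -1.84 for Crabp2 at day 12 (1.42e-05) and 1.96 for Rarb at day 12 (1.26e-05). Against WT, the change in KD differed by 3.98 for Adh1 (9.1e-19), 5.05 for Aldh1a1 (4.48e-17), 2.03 for Crabp1 (5.48e-06) and -2.91 for Cyp26a1 (2.67e-11) at day 22, and by 1.29 for Aldh1a2 (0.000474), 1.16 for Crabp2 (0.0033) and 2.29 for Rarb (6.32e-07) at day 15. The Adh1 value against WT includes a day 0 difference, KD minus WT being -0.63 at day 0 and 3.34 at day 22. The change in SCR against that in WT differed by 2.47 for Crabp2 at day 12 (5.74e-07) and 1.23 for Rarb at day 15 (0.00775). Over all genes 11.6% of such differences passed the same thresholds, against 50 of 120 for the retinoid genes. No group had more than 3 arrays, so no test for outlying arrays was run. The effect of leaving out 1 array at a time is given below.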

How the results depend on the processing

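Of 408 values, 400 kept direction and side of the thresholds after quantile normalisation, 399 after median centring, 408 with a mean-variance trend and robust variances, and 399 with array weights. Counts among the retinoid genes over all days were 20 (KD against SCR), 15 (KD against WT), 11 (SCR against WT), 59 (against day 0), 50 (differences in change from day 0) and 12 (means of days 12, 15 and 22). A filter on the brightest 60% of probe sets kept 3 of 8 genes and gave 8, 4, 8, 36, 24 and 4, the removed genes being counted as not passing. All 153 values of the kept genes stayed on the same side of the thresholds. Testing against the 2-fold minimum itself left 10, 9, 4 and 21 for the line comparisons and the differences in change, and adjusted p without a minimum gave 20 for SCR against WT. Leaving out 1 array at a time gave 19 to 21, 13 to 17, 10 to 12, 58 to 60, 49 to 51 and 12 to 14, and reversed no value. Leaving out all arrays numbered 3, an alternative chosen after seeing the data, gave 19, 14, 9, 57, 39 and 12.

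Pooled over all lines and days, deviations from the group mean of same-numbered arrays correlated at a median of 0.04, over 0.1 in 30.3% of pairs. For arrays of different number the median was -0.02. Pairing by number within the time course of a line was not tested. With the replicate number as a block the counts were 20, 15, 11, 59, 50 and 12, and no call changed. With the dimmer Aldh1a3 probe set (added after seeing the data) the sign turned for KD against WT at day 22 (1.78), for SCR against day 0 at days 12 (1.59) and 15 (1.17), and for the change in KD against that in SCR at day 12 (-1.38). None of these passed the test on the brighter probe set. There KD against WT at day 22 was -0.02, and SCR against day 0 was -0.06 and -0.16. Calls close to 2-fold, such as Rarb at day 4, Aldh1a2 against day 0 and KD against WT at day 22, and Crabp1 at day 22, fell below it under other scalings. Signals near background limit Adh1, Aldh1a1, Aldh1a3 and early Rarb.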

Other observations

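Arrays numbered 3 lay between the other arrays of their group more often than those numbered 1 or 2. Replicate 3 held the middle value in 80 of 144 groups of the 8 retinoid genes, against 37 for replicate 1 and 30 for replicate 2, ties counted for each. Over all probe sets its share was 32.8% to 59.3% by group, with a median of 47.1%, against 29.4% and 31.2% for replicates 1 and 2, and it had the largest array weight in 17 of 18 groups. What the number 3 stands for was not stated in the sources used here.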
